A study of Homo sapiens with 8 samples.

Results

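The charged multivesicular body proteins (CHMP) are the subunits of ESCRT-III, the part of the endosomal sorting machinery that cuts membranes. The 10 CHMP genes described here, CHMP1A, CHMP1B, CHMP2A, CHMP2B, CHMP3, CHMP4A, CHMP4B, CHMP5, CHMP6 and CHMP7, leave out CHMP4C and were taken by symbol from a table of raw read counts holding 15767 genes. All 10 passed the filter of at least 10 counts in at least 4 libraries and were among the 12928 genes tested. The counts came from RNA-seq of HuH7 cells, an established human hepatoma line described in the labels as wildtype, in a model of liver ischaemia/reperfusion. All cells went without glucose and with 1% oxygen during 6 h of hypoxia, followed by 6 h of reoxygenation, with DMSO in the I/R+DMSO group (n = 4) or with 20 µM of the ginsenoside Rk2 in the I/R+Rk2 group (n = 4). There was no group without hypoxia, the model is a single tumour cell line, and the labels do not say whether the 4 libraries of a group came from separate cultures, so p-values measure the spread between these libraries, which may be technical.

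ESCRT-III subunits assemble from the cytosol into filaments on the inside of a membrane neck and pull it closed. CHMP6 and CHMP7 start filaments, CHMP4 proteins form the main polymer, CHMP2 and CHMP3 cap and remodel it, CHMP1 proteins act with IST1 late in the sequence, and the ATPase VPS4 takes the filament apart with the help of CHMP5-bound VTA1. The same machinery sorts receptors into endosomal vesicles, separates daughter cells, reseals the nuclear envelope and sheds damaged plasma membrane, which delays the rupture of cells by MLKL in necroptosis and by gasdermins in pyroptosis.

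The cells carried the markers of their line. Mean normalised counts scaled to library size (CPM) were 5929 in I/R+DMSO and 5930 in I/R+Rk2 for AFP, and 2284 and 2303 for ALB. Of 8 hepatoma markers, APOA1, TF, SERPINA1, GPC3 and TTR did not pass in edgeR either. DESeq2 called APOA1 lower (its groups did not overlap, log2 fold change -0.22 in edgeR). APOB, with a length of 16763 bases implied by its counts and FPKM, was higher in I/R+Rk2 (log2 fold change 0.61, adjusted p = 0.0124, edgeR). With the trend with gene length removed, the APOB difference was 0.30 (adjusted p = 0.0147). PTPRC and VWF, markers of leukocytes and endothelium, were listed at an FPKM (a level per length and library size) of 0 in 8 of 8 libraries, and CD3E and COL1A1 were below the count filter. CD68, COL1A2 and PECAM1, markers of macrophages, fibroblasts and endothelium, were detected. CD68 had a mean of 52.4 CPM in the vehicle group and 49.5 with Rk2, COL1A2 of 18.1 and 17.7, and PECAM1 of 9.30 and 9.86. These 3 did not pass the test, with log2 fold changes of -0.08, -0.03 and 0.09.

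Library totals were 19257935, 21342382, 18428485 and 21447045 counts in I/R+DMSO 1 to 4 and 30310479, 18714966, 16374082 and 19496154 in I/R+Rk2 1 to 4. Genes were compared by edgeR's quasi-likelihood test with TMM normalization, and p-values were adjusted by the Benjamini-Hochberg method over all 12928 genes. Each fold change sets I/R+Rk2 over I/R+DMSO, an adjusted p-value below 0.05 counts as passing, and CPM values are TMM-normalised.

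CHMP2A and CHMP4A were the 2 of 10 CHMP genes that fell in I/R+Rk2, and 0 rose. Across all genes 18.2% passed the test, 7.23% as lower and 11.0% as higher. The other 8 CHMP genes did not pass. The log2 fold change was below 0 for 7 of the 10, and its median was -0.22, against a median of -0.002 over all genes tested. At an unadjusted p-value below 0.05 there were 4 CHMP genes, CHMP2A, CHMP4A, CHMP4B and CHMP6, all lower, where 34.5% of all genes were below it and 16.4% were below it and lower. DESeq2 called CHMP2A, CHMP4A and CHMP4B lower, as it did 10.2% of all genes, and 0 members higher. CHMP4A was the 1 member that both passed and changed by more than 1.5-fold, as 3.04% of all genes did. The lower values of CHMP2A and CHMP4A were known from earlier work on these same libraries, so their direction is not independent evidence. With a trend with gene length removed, neither passed in edgeR (-0.19 and -0.50 as log2 fold change), though CHMP4A did with a replicate block in the same fit (-0.53, adjusted p = 0.0362). CHMP4A did not pass when the reads of an overlapping gene were added to it.

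**Figure D1:**
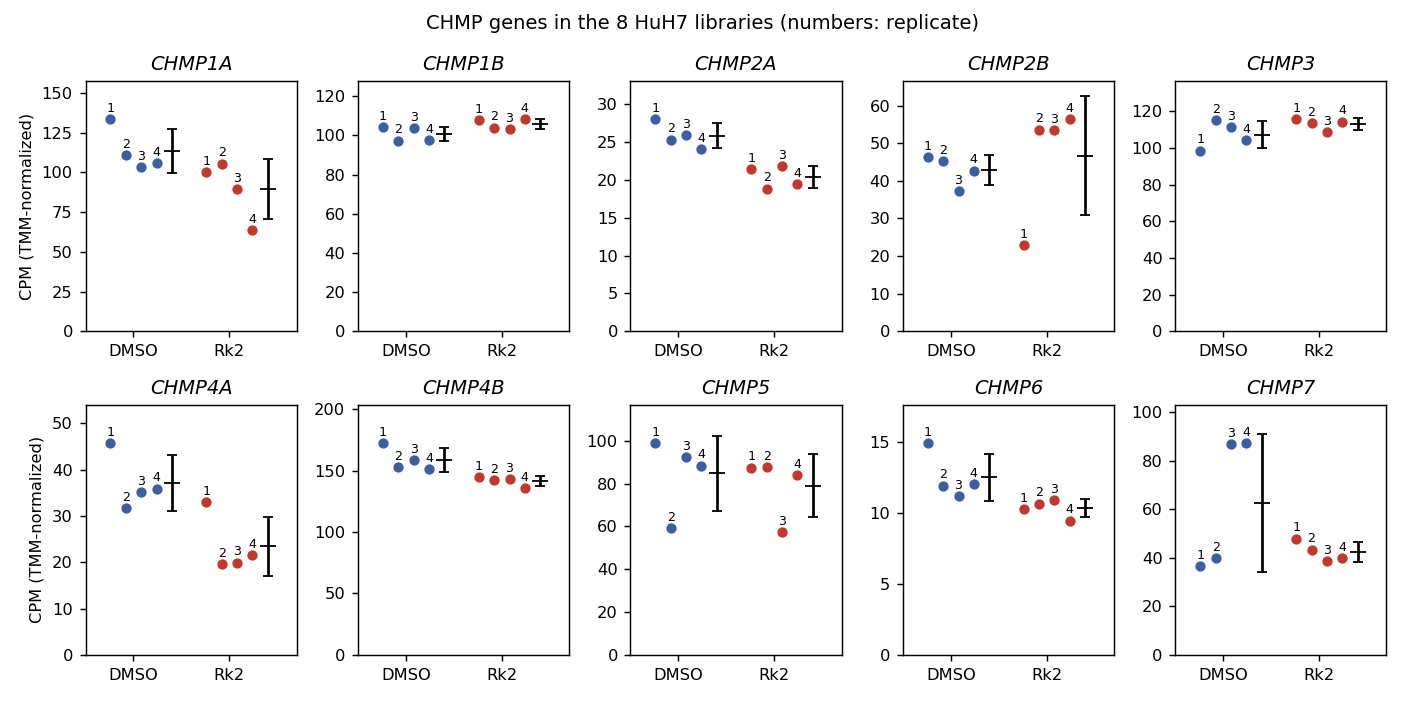
TMM-normalised CPM (vertical axis) of each of the 10 CHMP genes in the 4 I/R+DMSO and the 4 I/R+Rk2 libraries, with points for libraries and bars for the group mean and SD. The groups are separate for CHMP2A, CHMP4B and CHMP6, and single libraries stand apart in CHMP2B, CHMP4A and CHMP5.

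Levels between genes were compared per length, as FPKM. In I/R+DMSO the order ran from CHMP4B at 79.8 ± 3.98 FPKM (SD, n = 4) through CHMP5 at 47.4 ± 9.50, CHMP1A at 46.0 ± 3.86, CHMP4A at 36.7 ± 6.68, CHMP3 at 34.0 ± 2.56, CHMP1B at 29.0 ± 0.601, CHMP2A at 23.6 ± 1.41, CHMP7 at 22.6 ± 7.94 and CHMP2B at 14.3 ± 1.20 to CHMP6 at 6.53 ± 0.851. CHMP4B, the main filament subunit, was therefore the most abundant of these 10 mRNAs per length, and CHMP6, which nucleates filaments, the least. The neighbours CHMP5 and CHMP1A, CHMP4A and CHMP3, and CHMP2A and CHMP7 differed by less than the larger of their SDs. In I/R+Rk2, CHMP4B was again the highest, at 72.7 ± 1.77 FPKM, and CHMP6 the lowest, at 5.63 ± 0.497. CHMP4A stood at 21.1 ± 5.58 FPKM there, below CHMP3 at 35.8 ± 0.705 and CHMP1B at 30.2 ± 1.24. Summed over the 10 genes, the level was 340 ± 19.0 FPKM in I/R+DMSO and 303 ± 15.7 in I/R+Rk2. In bulk RNA, fewer cells with a transcript and less of it per cell cannot be told apart.

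CHMP4 proteins form the bulk of the filament. CHMP4A lies at chr14:24209583-24213869 on the minus strand and CHMP4B at chr20:33811304-33854366 on the plus strand (GRCh38). CHMP4A stood at 45.8, 31.7, 35.2 and 35.9 CPM in I/R+DMSO 1 to 4 and at 32.9, 19.5, 19.9 and 21.6 CPM in I/R+Rk2 1 to 4. I/R+Rk2 1 was the highest of its group and lay above I/R+DMSO 2, so the groups overlapped at that one point. The mean went from 37.1 ± 6.06 to 23.5 ± 6.36 CPM (SD, n = 4 per group), which is -0.65 as log2 fold change (standard error 0.192, 95% interval -1.10 to -0.21, adjusted p = 0.0499, edgeR). On the FPKM scale the groups did not overlap, with the gene length behind the values between 968 and 1085 bases in I/R+DMSO and between 1100 and 1144 bases in I/R+Rk2. Without I/R+Rk2 1 the log2 fold change of CHMP4A was -0.87 with an adjusted p of 0.00907 (edgeR). With any of the other 7 libraries left out the adjusted p exceeded 0.05 and reached 0.122. In those 7 fits the log2 fold change stayed between -0.72 and -0.54.

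CHMP4B stood at 173, 153, 158 and 151 CPM in I/R+DMSO and at 145, 142, 143 and 136 CPM in I/R+Rk2. Every I/R+Rk2 library was below every I/R+DMSO library, a separation in the lower direction that 12.9% of all genes showed. The log2 fold change was -0.17 (95% interval -0.28 to -0.05), with an adjusted p of 0.0519 in edgeR, and CHMP4B did not pass. It passed under DESeq2 (adjusted p = 0.0169), and in edgeR without I/R+DMSO 4 (adjusted p = 0.0469).

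The RefSeq promoter table (GRCh38.p14, 250 bases before to 50 after the start) held entries for 7 of the 10 genes and none for CHMP3, CHMP6 and CHMP7. After the promoters had been read, 5 motifs were searched on both strands, TCACGTGA (the core of the CLEAR element, bound by TFEB), CACGTG (the E-box inside it), CGCATGCG (the core of the NRF1 site), TGACGTCA (the CRE) and TGATGNAA (the amino acid response element). Among 35116 promoters of the same length the shares with a match were 0.98%, 7.26%, 2.02%, 1.85% and 3.62%. The 3 members with a match are shown as 30 bases of the gene's strand, 5′ to 3′, with the matched motif in capitals, the first 2 because they passed the test and CHMP1B beside them as a member that did not.
CHMP4A, CLEAR core: ggtggcttgggTCACGTGAcaccggtggtc
CHMP2A, NRF1 core: gggagctgttgCGCATGCGctcggacgctg
CHMP1B, CRE: gcgctgggctcTGACGTCAccacctgcgcc
The stretches lie at chr14:24213585-24213614 (minus strand), chr19:58555192-58555221 (minus strand) and chr18:11851356-11851385 (plus strand). The capitals start at position -115 from the first transcribed base in CHMP4A, at -105 in CHMP2A and at -46 in CHMP1B. The CHMP4A stretch lies inside the span of CHMP4A in GENCODE v29 (chr14:24209583-24213869). A match describes these letters and was not tested as a binding site.

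CHMP2 and CHMP3 proteins remodel the filament. CHMP2A, at chr19:58551566-58555124 on the minus strand, stood at 28.0, 25.3, 25.9 and 24.1 CPM in I/R+DMSO and at 21.4, 18.8, 21.8 and 19.4 CPM in I/R+Rk2. The groups were apart, with the lowest I/R+DMSO library above the highest I/R+Rk2 library. CHMP2A fell, with means of 25.8 ± 1.64 and 20.4 ± 1.45 CPM (SD, n = 4 per group) and -0.34 as log2 fold change (standard error 0.0733, 95% interval -0.51 to -0.17, adjusted p = 0.0170, edgeR). It passed with 7 of the 8 libraries left out in turn, the exception being I/R+Rk2 4 (adjusted p = 0.0519), and its log2 fold change stayed between -0.38 and -0.30.

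CHMP2B, the paralog of CHMP2A, stood at 46.4, 45.2, 37.4 and 42.7 CPM in I/R+DMSO and at 23.0, 53.7, 53.5 and 56.4 CPM in I/R+Rk2. One library, I/R+Rk2 1, had the lowest value of all 8, while the other 3 of its group had the highest. Its log2 fold change was 0.12 (standard error 0.262, adjusted p = 0.792, edgeR) with all libraries and 0.34 (adjusted p = 0.0365) without I/R+Rk2 1. It was 0.04 without I/R+Rk2 2 or 3, 0.00880 without I/R+Rk2 4, and between 0.06 and 0.15 when an I/R+DMSO library was left out. The gene length that the counts and FPKM together give for CHMP2B was between 2923 and 3009 bases in the 4 I/R+DMSO libraries and 2973 and 2987 in I/R+Rk2 3 and 4, but 2029 in I/R+Rk2 1 and 2526 in I/R+Rk2 2. The counts and FPKM of CHMP2B thus did not keep 1 ratio across libraries, and whether different isoforms lie behind this was not tested.

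CHMP3 was at 107 ± 7.37 CPM (SD, n = 4) with DMSO and at 113 ± 3.06 CPM (SD, n = 4) with Rk2, with overlapping groups (log2 fold change 0.08, adjusted p = 0.371, edgeR). Its exons share 760 bases on the same strand with the readthrough gene RNF103-CHMP3, which did not pass the test either (log2 fold change -0.16, adjusted p = 0.796).

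CHMP6 and CHMP7 recruit the other subunits, CHMP6 at endosomes and CHMP7 at the nuclear envelope. CHMP6 stood at 14.9, 11.9, 11.2 and 12.0 CPM in I/R+DMSO and at 10.2, 10.6, 10.9 and 9.45 CPM in I/R+Rk2. The groups did not overlap, which made 3 CHMP genes (CHMP2A, CHMP4B and CHMP6) separate as lower and 0 as higher, against 12.9% and 15.4% of all genes, or 28.2% in either direction. Without I/R+DMSO 1 the log2 fold change of CHMP6 was -0.18. With all libraries it was -0.28 with a 95% interval from -0.51 to -0.04 and an adjusted p of 0.0939 (edgeR). CHMP7 stood at 36.5, 39.8, 86.9 and 87.3 CPM in I/R+DMSO and at 47.9, 43.3, 38.8 and 39.8 CPM in I/R+Rk2. I/R+DMSO 3 and 4 lay far above I/R+DMSO 1 and 2, which were in the range of the I/R+Rk2 libraries or below it. The mean of CHMP7 was 62.6 ± 28.3 CPM against 42.5 ± 4.10 CPM, and the log2 fold change of -0.56 had a standard error of 0.306 and an adjusted p of 0.238. The length behind its values split the same way, at 2361 and 2428 bases in I/R+DMSO 1 and 2 and 2911 and 2946 in I/R+DMSO 3 and 4, with 2138 in I/R+Rk2 1 and 2720 to 2780 in the other 3.

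CHMP1A, CHMP1B and CHMP5 act late, with VPS4. CHMP1A stood at 134, 111, 103 and 106 CPM in I/R+DMSO and at 100, 106, 89.4 and 63.5 CPM in I/R+Rk2, where library 4 was the lowest of all 8. The groups overlapped, and the log2 fold change was -0.34 (95% interval -0.71 to 0.03, adjusted p = 0.180, edgeR), and -0.21 without I/R+Rk2 4. CHMP1B, a gene of a single exon, varied least, at 101 ± 3.74 CPM with DMSO and 106 ± 2.67 CPM with Rk2 (SD, n = 4 per group, log2 fold change 0.07, 95% interval -0.02 to 0.17, adjusted p = 0.260). CHMP5 stood at 99.0, 59.4, 92.2 and 88.4 CPM in I/R+DMSO and at 87.4, 87.6, 57.3 and 83.9 CPM in I/R+Rk2. Each group of CHMP5 held 1 low library, I/R+DMSO 2 and I/R+Rk2 3, and the log2 fold change was -0.10 (95% interval -0.54 to 0.34, adjusted p = 0.755). The intervals of CHMP1A and CHMP5 also hold changes of the size seen in CHMP2A.

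Ratios of paralogs within a library need no scaling between libraries. A trend with gene length does not cancel in them, as the paralogs of all 3 pairs differ in length. The log2 ratio of CHMP1A to CHMP1B counts averaged 0.16 in I/R+DMSO and -0.26 in I/R+Rk2, a difference of -0.43 (two-sided exact permutation p = 0.0571, adjusted over the 3 ratios 0.129). For CHMP4A over CHMP4B the means were -2.11 and -2.62, a difference of -0.51 (exact permutation p = 0.0857, adjusted 0.129). For CHMP2A over CHMP2B they were -0.73 and -1.11, a difference of -0.38 (exact permutation p = 0.286, adjusted 0.286), which became -0.22 with the gene length correction (exact permutation p = 0.543) and -0.58 as a ratio of FPKM (exact permutation p = 0.114). Without I/R+Rk2 1 the difference in CHMP2A over CHMP2B was -0.72 (exact permutation p = 0.0571, the smallest possible with 3 against 4). Without I/R+Rk2 2 it was -0.25 and without I/R+Rk2 4 it was -0.24, and that of CHMP1A over CHMP1B was -0.26 without I/R+Rk2 4. None of the 3 count ratios differed beyond the spread between libraries by this test, whose smallest p with 4 against 4 is 0.0286. As ratios of FPKM, CHMP1A over CHMP1B (-0.34) and CHMP4A over CHMP4B (-0.68) reached that smallest p. The p-values of the FPKM ratios were not adjusted over the 3 ratios.

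Fold change moved with gene length, as implied by counts and FPKM, across these libraries. Over genes, which are not independent replicates, the Spearman rho between log2 fold change and length was 0.388. Among 5 length classes of equal size, the shortest had a median log2 fold change of -0.14, with 11.2% passing as lower and 1.98% as higher, and the longest had a median of 0.17, with 2.56% lower and 22.8% higher. CHMP2A (1092 bases) and CHMP4A (1093 bases) were the 2 members in the shortest class. CHMP1A, CHMP4B, CHMP5 and CHMP6 were in the next, CHMP2B, CHMP3 and CHMP7 in the middle one, and CHMP1B, at 3504 bases, in the one above. No member was in the longest class. The curve through all genes stood at a log2 fold change of -0.15 at the length of both CHMP2A and CHMP4A, which lay 0.19 and 0.51 below it. I/R+DMSO 1 departed furthest in the direction of short genes (rho of its deviations with length -0.489) and I/R+Rk2 4 furthest towards long ones (0.377). This rho was below 0 in all 4 I/R+DMSO libraries and above 0 in all 4 I/R+Rk2 libraries. The share of counts on mitochondrial genes also separated the groups, with 10.6% to 11.1% for the I/R+DMSO libraries against 9.02% to 9.62% for those given Rk2, and its part in the CHMP values was not tested.

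**Figure D2:**
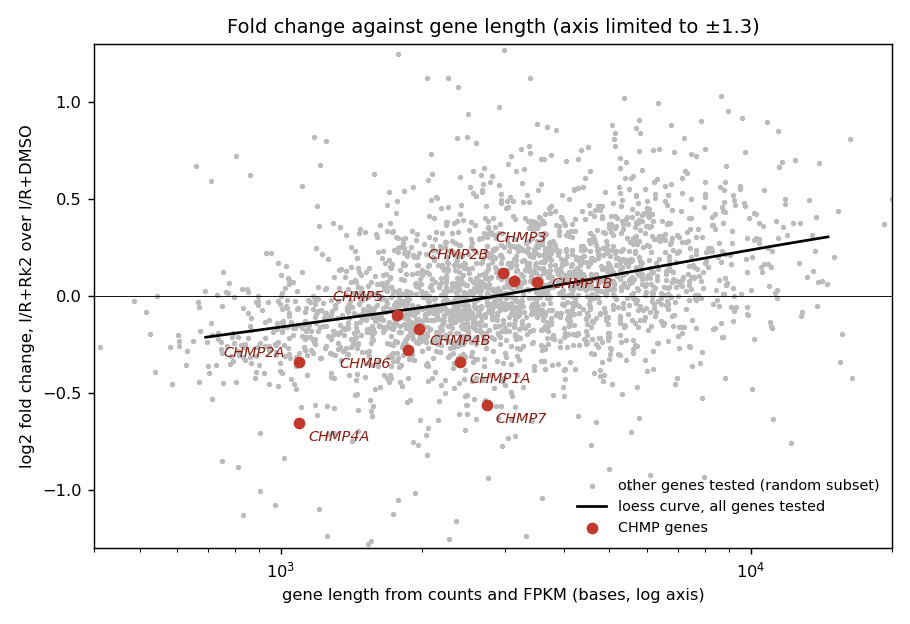
Log2 fold change of I/R+Rk2 over I/R+DMSO (vertical axis) against gene length in bases (log axis) for a random subset of the genes tested, with the loess curve of all genes in black and the CHMP genes in red. CHMP2A and CHMP4A, the 2 shortest members by counts and FPKM, lie where the curve is below 0, at log2 fold changes of -0.34 and -0.65.

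With the length trend removed from each library by a loess curve, 0 of the 10 CHMP genes passed the edgeR test in either direction, against 17.4% of all genes (8.58% as lower), and 4 had an unadjusted p-value below 0.05, against 31.9% of all genes. CHMP2A then stood at -0.19 on the log2 scale (adjusted p = 0.0607) and CHMP4A at -0.50 (adjusted p = 0.0816). CHMP4B stood at -0.11 (adjusted p = 0.0581), CHMP6 at -0.21 (adjusted p = 0.131) and CHMP7 at -0.56 (adjusted p = 0.265). The sign of all 10 was as before, and the median of the members was -0.15. Whether the length trend arose in the cells or in the libraries was not tested.

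**Figure D3:**
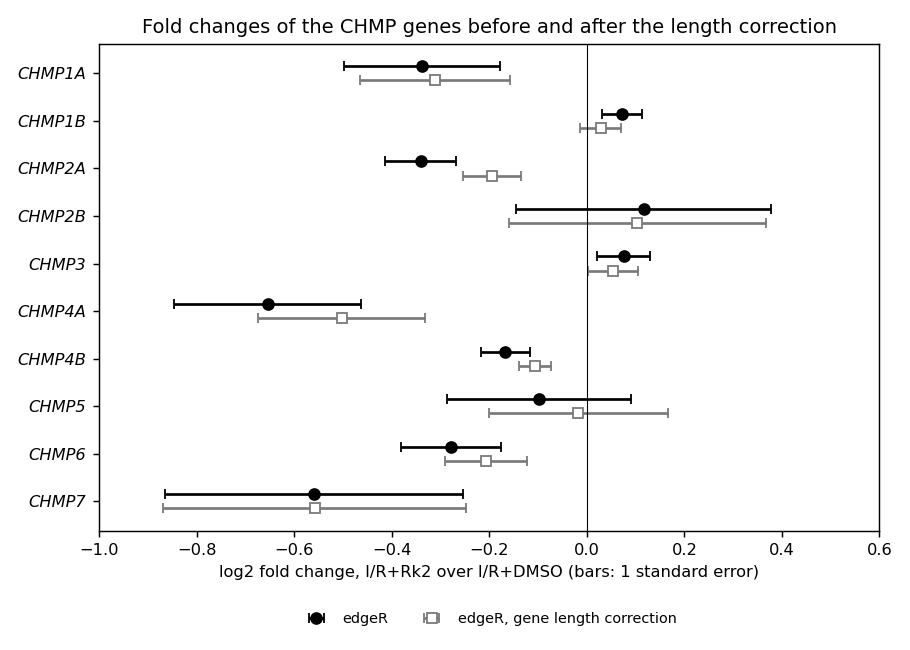
Log2 fold changes of the 10 CHMP genes (horizontal axis, bars 1 standard error) from edgeR, as filled circles without and open squares with the gene length correction. CHMP2A moves from -0.34 to -0.19 and CHMP4A from -0.65 to -0.50, while CHMP7, of middle length, stays at -0.56.

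Counts of CHMP4A also share sequence with a neighbour. In GENCODE v29 the exons of AL136295.1, a gene on the same strand, share 644 bases with CHMP4A, which is 26.7% of the CHMP4A exon bases and 23.5% of its own, and 76.5% of its own overlap TM9SF1. AL096870.2, a processed transcript on the same strand, shares 68.8% of the CHMP4A exon bases and was not analysed here. AL136295.1 held 0, 119, 8 and 0 counts in I/R+DMSO 1 to 4 and 22, 192, 426 and 40 counts in I/R+Rk2 1 to 4. CHMP4A held 863, 673, 639 and 766 counts in I/R+DMSO and 1007, 369, 330 and 427 in I/R+Rk2. The 3 libraries with the most counts on AL136295.1 were I/R+Rk2 3, I/R+Rk2 2 and I/R+DMSO 2, and in CPM of CHMP4A the first 2 of these were the lowest of I/R+Rk2 and I/R+DMSO 2 was the lowest of I/R+DMSO. Summed, the 2 genes stood at 45.8, 37.3, 35.6 and 35.9 CPM in I/R+DMSO and at 33.7, 29.7, 45.7 and 23.6 CPM in I/R+Rk2. The summed groups overlapped through I/R+Rk2 3 alone, as the sums of I/R+Rk2 1, 2 and 4 lay below every I/R+DMSO sum. In an edgeR fit with the sum in place of CHMP4A, added after seeing the data, the log2 fold change was -0.22 (adjusted p = 0.457). The sum was not tested without I/R+Rk2 3. On the opposite strand, exons of SPATA33 overlap CHMP1A, CHMP1B-AS1 overlaps CHMP1B, AC015971.1 overlaps CHMP3 and AC127496.6 overlaps CHMP6. In I/R+Rk2 1 and 4 AL136295.1 held 0.720 and 2.02 CPM, beside 32.9 and 21.6 CPM of CHMP4A. How reads shared by CHMP4A and AL136295.1 were assigned is not given in the sources used here. Whether reads of CHMP4A or of TM9SF1 were counted on AL136295.1 was not tested.

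**Figure D4:**
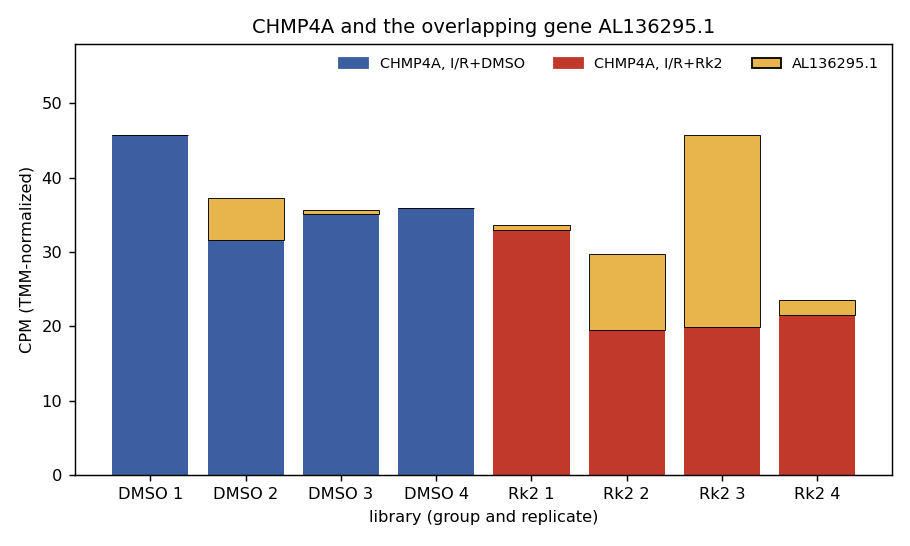
TMM-normalised CPM of CHMP4A (blue or red) with the overlapping gene AL136295.1 (yellow) stacked on it (vertical axis) in each of the 8 libraries. I/R+Rk2 3 has 19.9 CPM of CHMP4A but 45.7 CPM for the sum, close to the highest I/R+DMSO library at 45.8.

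Leaving out single libraries changed which CHMP genes passed and the size of some fold changes. CHMP2A passed in 7 of 8 fits with 1 library left out, and CHMP2B, CHMP4A and CHMP4B in 1 of 8 each. Of the 10 genes, CHMP1A, CHMP1B, CHMP3, CHMP5, CHMP6 and CHMP7 passed in 0. CHMP4A was nevertheless lower in 8 of 8 fits (log2 fold changes -0.87 to -0.54), as was CHMP4B (-0.19 to -0.13). Calls over all genes also became fewer, at 1291 to 2282 against 2351 with all libraries. The log2 fold change of CHMP7 ranged from -0.75 without I/R+DMSO 1 to -0.36 without I/R+DMSO 3, and that of CHMP5 from -0.24 to 0.03. CHMP1B and CHMP3 stayed between 0.04 and 0.11 in all 8 fits.

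**Figure D5:**
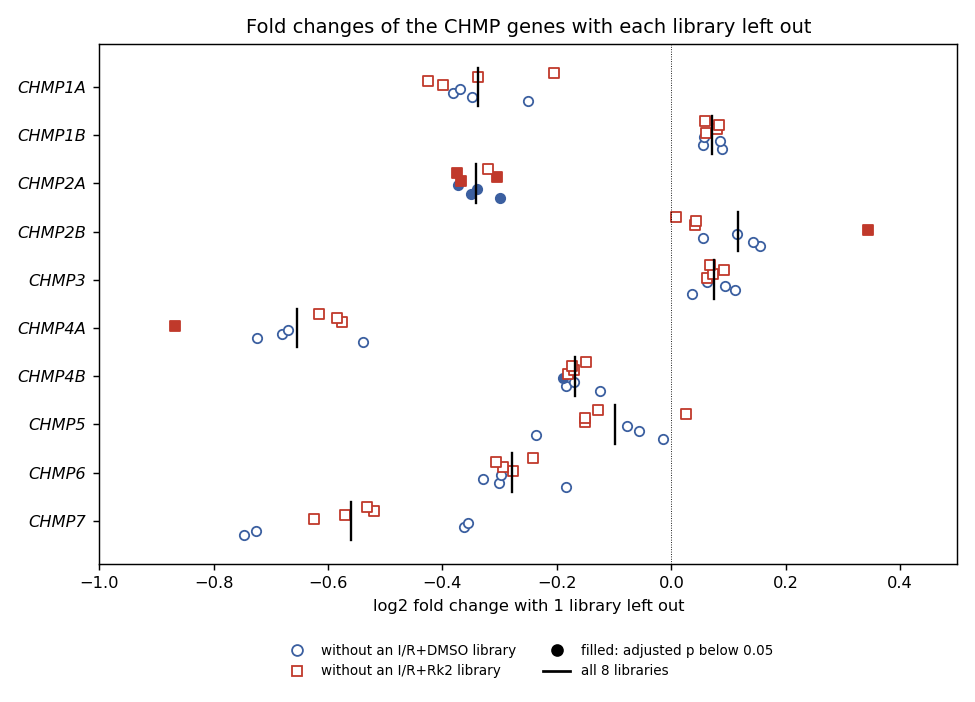
Log2 fold changes of the 10 CHMP genes (horizontal axis) with each library left out in turn, as circles for I/R+DMSO and squares for I/R+Rk2 libraries, filled where the adjusted p was below 0.05, with a bar for the value from all 8. CHMP2A is filled in 7 of 8 fits, and the fit without I/R+Rk2 1 stands apart for CHMP2B, at 0.34, and CHMP4A, at -0.87.

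The genes whose log2 CPM ran most like CHMP2A over the 8 libraries, by Pearson r among 12187 genes, were TRMT112 (0.988), SAMD1 (0.987) and CCDC61 (0.983). For CHMP4A they were PYURF (0.983), MGST3 (0.978) and CWC15 (0.977). These 6 genes were between 941 and 2473 bases long, all under the median length of 2912, and the points share the same libraries and the same length trend.

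VPS4A, the ATPase that takes CHMP filaments apart, was the only one of 5 genes for VPS4 and its cofactors that passed in edgeR. It stood at 98.8, 105, 98.0 and 91.2 CPM in I/R+DMSO and at 88.1, 84.0, 82.7 and 83.5 CPM in I/R+Rk2, without overlap, and its log2 fold change was -0.22 (edgeR, adjusted p = 0.0225). After the length correction its log2 fold change was -0.27 (adjusted p = 0.0104). It did not pass in edgeR without I/R+DMSO 2 or 3 or without I/R+Rk2 2, 3 or 4, with adjusted p-values up to 0.0631. In those fits its log2 fold change stayed between -0.22 and -0.18. VPS4B, its paralog, had one of 0.13 (adjusted p = 0.228), the VPS4 cofactor VTA1 one of -0.39 (adjusted p = 0.182) and MITD1, a midbody protein that binds ESCRT-III, one of 0.08 (adjusted p = 0.401). SPAST, which severs microtubules where ESCRT-III gathers, stood at 6.21, 6.82, 7.65 and 6.28 CPM in I/R+DMSO and at 16.2, 21.9, 7.25 and 8.49 CPM in I/R+Rk2. Its I/R+Rk2 libraries 1 and 2 were far above the rest, and it did not pass in edgeR (log2 fold change 1.00, adjusted p = 0.0792), though it did in DESeq2 (adjusted p = 0.0215) and in edgeR without I/R+Rk2 3 (adjusted p = 0.0428). On log2(FPKM + 1) its log2 fold change was 0.31 (limma, adjusted p = 0.141). The length implied by its counts and FPKM was 6004 and 6207 bases in I/R+Rk2 1 and 2 and at most 3490 in the other 6 libraries.

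IST1, a further ESCRT-III protein, stood at 164, 168, 163 and 143 CPM in I/R+DMSO and at 135, 137, 83.0 and 60.4 CPM in I/R+Rk2. All 4 I/R+Rk2 libraries lay below I/R+DMSO, but they were spread widely, and the log2 fold change of -0.62 had an adjusted p of 0.124 in edgeR and 0.0437 in DESeq2. CHMP4C, the remaining CHMP4 gene, did not pass (log2 fold change 0.05, adjusted p = 0.680).

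Of 32 other ESCRT genes in 7 lists, 31 were tested, 2 fell and 3 rose, near the background of 7.23% and 11.0% of all genes, and their median log2 fold change was 0.01. Besides VPS4A, HGS, which binds ubiquitinated cargo in ESCRT-0, was lower by a log2 fold change of -0.14 (edgeR, adjusted p = 0.0406). STAM2, its partner, rose from 26.8, 31.4, 27.8 and 30.8 CPM to 39.2, 38.9, 35.8 and 39.4 CPM (log2 fold change 0.39, adjusted p = 0.00761), and the groups did not overlap. USP8, a deubiquitinase of the pathway, rose by 0.34 (adjusted p = 0.0115) and PTPN23, an adaptor related to ALIX, by 0.20 (adjusted p = 0.0339). STAM2 and USP8 passed in all 8 fits with 1 library left out, while HGS and PTPN23 each passed in 1 of them. With the length and GC correction STAM2 (0.12, adjusted p = 0.188) and USP8 (0.18, adjusted p = 0.0858) did not pass, and PTPN23 did (0.22, adjusted p = 0.00959). No gene of ESCRT-I (8 tested, 0 at an unadjusted p below 0.05) or ESCRT-II (3 tested, 1 at an unadjusted p below 0.05) passed in edgeR or DESeq2. After the length correction HGS and PTPN23 no longer passed, and MITD1 did (log2 fold change 0.23, adjusted p = 0.0310).

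Of the pathways whose membrane damage ESCRT-III counters, 5 of the 6 genes listed were tested and 0 passed in edgeR or DESeq2, with 0 at an unadjusted p below 0.05 in either. Over all genes 18.2% passed in edgeR and 34.5% were below that unadjusted p, so a count of 0 among 5 genes says little about these pathways. MLKL was near the detection limit, with means of 0.450 and 0.425 CPM, and RIPK3, its activator, was listed at an FPKM of 0 in 8 of 8 libraries. GSDMD (log2 fold change -0.16, adjusted p = 0.327), NINJ1 (-0.26, adjusted p = 0.178), RIPK1 (-0.01, adjusted p = 0.925) and DFNA5, which encodes gasdermin E (0.05, adjusted p = 0.628), did not pass.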

How the data were processed

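HuH7 cells were measured by RNA-seq in 4 I/R+DMSO and 4 I/R+Rk2 libraries, grouped from their labels. The authors prepared the libraries with the MGIEasy kit and sequenced them on a BGISEQ-500. They deposited raw counts per gene for 15767 genes, without normalization, and FPKM, normalised for gene length and library size, for 19799. The submitters' processing notes name hg38, FastQC 0.11.5, HISAT2 2.2.1 and StringTie 1.3.3. The counting tool, the annotation release and the use of strand are not given in the sources used here, so reads of overlapping genes may be split or shared. Among the counted genes, 22 symbols had been turned into dates, with 0.111% of counts.

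Tests used edgeR 4.0.16 (TMM, robust quasi-likelihood, R 4.3.3) on the 12928 genes that reached 10 counts in 4 or more libraries, 99.96% of all counts. Group was the only term, and p-values were adjusted by the Benjamini-Hochberg method. Totals ranged from 16374082 to 30310479 counts, and the biological coefficient of variation was 17.1%. Replicates differed beyond counting error, so none was merged. Gene length was derived from the counts and FPKM, as the median over libraries with at least 10 counts, and its trend was removed by a loess curve (span 0.5) per library. It is a ratio of counts to FPKM and not a measured transcript length. For CHMP1B and CHMP4B it was 3504 and 1965 bases, above their annotated exon totals of 3054 and 1646 bases. Paralog ratios were tested by exact permutation (SciPy 1.17.1). The alternatives were DESeq2 1.42.0, limma 3.58.1 on log2 FPKM with a pseudocount of 1 or 0.1 (genes averaging 0.5 FPKM or more, or all genes), voom with sample weights, other scalings and filters, a replicate block, corrections for length and for length and GC content, and leaving out each library. Summing overlapping genes was chosen after seeing the data. Positions and overlaps are from GENCODE v29 (GRCh38).

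The CHMP genes and the gene lists were chosen with earlier results of these data known. The text names all 10 members, the list genes with an adjusted p below 0.05, the genes of the lists for other ESCRT-III proteins, VPS4 and the markers, the 3 genes most like CHMP2A and CHMP4A, and genes whose exons overlap a member. MLKL, RIPK1, RIPK3, GSDMD, NINJ1 and DFNA5 were named after their values were seen. The tests were checked on simulated data.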

Additional observations from a re-analysis of the deposited data

Results flagged for a closer look

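In groups of 4 libraries, the gap of the highest or lowest library to its neighbour was compared with the range of the group, and a share above Dixon's 95% critical value drew attention. Of 62 groups of values 8 exceeded it, where chance gives about 1 in 20 groups. Among the 20 groups of the CHMP genes 3 did, CHMP2B in I/R+Rk2 1 (lowest, ratio 0.914), CHMP4A in I/R+Rk2 1 (highest, 0.848) and CHMP5 in I/R+Rk2 3 (lowest, 0.875). The log2 ratio of CHMP2A to CHMP2B was far above its group in I/R+Rk2 1 (0.832), the library that was low for CHMP2B. AL136295.1, which overlaps CHMP4A, was far above its group in I/R+DMSO 2 (0.921), and the sum of CHMP4A and AL136295.1 in I/R+DMSO 1 (0.838). Outside the CHMP genes, VTA1 was high in I/R+Rk2 2 (0.852), and STAM2 was low in I/R+Rk2 3 (0.860), where it still lay above every I/R+DMSO library. CHMP7, with 2 libraries near 87 CPM and 2 near 38 in I/R+DMSO, does not stand out by this measure, since no single library is apart.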

How the results depend on the processing

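The number of CHMP genes that passed was 2, and it was 3 with DESeq2, with upper-quartile normalization and with at least 50 counts in every library. It was 1 with library size only, with no filter on low counts, with limma on unfiltered log2(FPKM + 1) and with overlapping genes summed, 0 with the gene length correction and with the length and GC correction, and between 0 and 3 with 1 library left out. The background moved too: lower genes among all tested numbered 935 of 12928, against 1318 with DESeq2, 1300 with upper-quartile normalization, 1022 of 10737 with at least 50 counts, 683 with library size only, 784 of 15767 with no filter, 264 of 15778 with limma unfiltered, 1109 with the length correction, 1032 with length and GC, and 430 to 887 with 1 library left out. All calls under these settings were lower except that of CHMP2B without I/R+Rk2 1. CHMP2A passed in 9, CHMP4A in 8 and CHMP4B in 4 of 13 alternatives other than leaving out a library or summing overlapping genes, and CHMP1A, CHMP1B, CHMP2B, CHMP3, CHMP5, CHMP6 and CHMP7 in 0 of them. The median of the members moved from -0.22 to -0.12 with the length and GC correction. The sign turned for CHMP1B (-0.0357) and CHMP2B (-0.0373) with that correction, and for CHMP5 with voom (0.00986) and without I/R+Rk2 3 (0.0262), where leaving out other libraries gave values down to -0.236. The replicate numbers did not pair the libraries (correlations of same-numbered libraries from -0.009 to 0.085). With a replicate block 2 members and 1814 of all genes passed, and with the block and the length correction 1 member, 2 of the other ESCRT genes and 1466 of all genes. All genes past the threshold numbered 2351, against 1121 and 1106 with limma on log2(FPKM + 1) and log2(FPKM + 0.1), 971 without the filter, and 1291 to 2282 with 1 library left out, the lowest without I/R+Rk2 4. Lower genes made up 39.8% of all calls, 51.1% with upper-quartile normalization, 29.4% with library size only and 49.2% with the length correction. Of the other ESCRT genes 5 passed, 8 with DESeq2, 2 to 4 with 1 library left out and 1 in each limma fit on FPKM, which shared 0 with the 5. As ratios of FPKM, CHMP1A over CHMP1B (-0.34) and CHMP4A over CHMP4B (-0.68) reached an exact permutation p of 0.0286, the smallest possible. The cause of these shifts was not tested. Depth limited MLKL, with 6 to 13 counts per library, more than any CHMP gene.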
